A study of Mus musculus with 4 samples.

Results

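The 83 genes described here carry the names of cytosolic ribosomal proteins and were measured in mouse germinal vesicle oocytes of the SN and NSN chromatin classes. They were taken from the authors' transcript table by symbol, as genes named Rpl, Rplp or Rps with a number (or Rpsa), without pseudogenes and without the Rps6k kinase genes. Of 17945 genes in the table, 31 encode small subunit proteins and 52 large subunit proteins by this rule, with 145 of the 48574 transcript models. The rule reads names, so it misses some ribosomal protein genes, such as Rps3a1, Fau, Rpl36al and Rack1, which are given apart. It also takes in Rpl7l1, a relative of Rpl7 that takes part in assembly of the large subunit. All 83 are protein-coding in RefSeq, whereas Rpl32l is a processed pseudogene in GENCODE M21.

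Oocytes came from unprimed female mice at postnatal day 20, with no strain or genotype in the labels used here. They were stripped of cumulus cells and held in meiotic prophase with milrinone, a phosphodiesterase inhibitor, so both classes carry that treatment. A deep learning pipeline read bright-field images of each live oocyte and assigned it to the SN class, in which condensed chromatin surrounds the nucleolus, or to the NSN class, in which it does not. The SN class had 2 libraries and the NSN class had 2 libraries, with 15 oocytes per class, and the labels do not say how oocytes or animals were divided between libraries. No label says that replicates came from separate animals, so each p-value below reflects variation among 4 libraries that could be technical. RNA was captured with oligo(dT), so a level here counts transcripts that carry a poly(A) tail. In such pooled samples, fewer oocytes with a transcript and less of it per oocyte cannot be told apart.

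A ribosome contains a copy of nearly every ribosomal protein, and cells make these proteins in balanced amounts. In vertebrates their mRNAs begin with a cytosine followed by an unbroken run of pyrimidines, the terminal oligopyrimidine (TOP) tract, through which the mTOR pathway and the RNA-binding protein Larp1 control their translation together. A growing mouse oocyte stores ribosomes and mRNAs for the embryo, and its transcription is active in the NSN configuration and falls silent in the SN configuration.

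Sequences around the annotated start of transcription show pyrimidine runs at or downstream of that start in the main genes listed below. In most of the second copies listed, the run begins upstream of it. RefSeq promoter windows of the GRCm38.p6 assembly, which mm10 names, were found for 63 of the 83 members. The longest run that starts with C and holds only C and T was searched from 20 bases before to 50 bases after the annotated start. The 30-base windows below are written 5′ to 3′ on the gene's own strand with that run in capitals. They are shown because the levels, copies or fold changes described further on concern these genes, and each second copy follows its partner where both have a window.
Rplp2 (chr7:141447637-141447666, plus strand): gcgtcagcgtCTTCCTTTCgccgccggacg
Rps6 (chr4:86857349-86857378, minus strand): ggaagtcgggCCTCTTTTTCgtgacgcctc
Rpl11 (chr4:136053360-136053389, minus strand): ggccggaagtCTCCCTCTCTCTTCCTgttc
Rpl37 (chr15:5116631-5116660, plus strand): ggcgggggtgCTTTCTCTTCCggtctcttt
Rpl39 (chrX:37085173-37085202, minus strand): gttcttccggtcccggCCTTTCTCTTCTCC
Rpl39l (chr16:10170211-10170240, plus strand): agctcccaggCCTTTCCggatttccggtgg
Rps27 (chr3:90213631-90213660, minus strand): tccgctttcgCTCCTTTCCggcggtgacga
Rps27l (chr9:66946064-66946093, plus strand): ctcctctccaCTCCTCCCCgccgcctctat
Rpl22 (chr4:152324433-152324462, plus strand): aatgttccagCTCCCactgacagaataaag
Rpl22l1 (chr3:28805501-28805530, plus strand): caagcccgttCTCTTCCCacggctgcagct
Rpl7l1 (chr17:46782656-46782685, minus strand): ctctaccccgCCCggtgaggctgcgcaagc
Rpl10l (chr12:66284392-66284421, minus strand): agaaatttggCCTCCattttgcggctggcg
Rps6, Rplp2 and Rps27 carried runs of 10, 9 and 9 bases at the annotated start. Rpl11, Rpl37 and Rpl39 carried runs of 16, 11 and 14 bases further downstream, that of Rpl39 reaching the end of the searched stretch. Runs that begin downstream of the annotated start are not TOP tracts of an mRNA that starts there. Among the second copies, Rps27l had a run of 9 bases and Rpl22l1 one of 8, while Rpl39l had 7, Rpl10l 5 and Rpl7l1 3. Counted from the annotated start, these runs began at −12 in Rps27l, −7 in Rpl39l, −10 in Rpl10l and −19 in Rpl7l1. That of Rpl22l1 began downstream. The runs of Rps27l, Rpl39l, Rpl10l and Rpl7l1 ended before the start, so an mRNA that starts there does not hold them. Rpl22 had a run of only 5 bases, shorter than that of its second copy.

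A run of at least 8 bases, at any place in the searched stretch, lay in the window of 49 of the 63 members with a sequence (77.8%), against 22.6% of 26962 other genes with a window and 22.5% of the 10750 of those that were tested. The median longest run was 10 bases in members and 5 bases in other genes. In the whole window, from 250 bases before to 50 bases after the start, CCGGAAG, a core bound by Ets family factors, was found on either strand in 25 members (39.7%), against 9.86% of other genes and 18.8% of other tested genes. AAGATGG, the core of the Yy1 motif, was found in 10 members (15.9%), against 7.26% of other genes and 8.20% of other tested genes. GGGCGG, the Sp1 box, was in 38 members (60.3%), against 38.2% of other genes and 63.6% of other tested genes. TATAAA, the TATA box, was in 8 members (12.7%), against 15.7% of other genes and 9.81% of other tested genes. None of these 4 motifs contains another, but CCGGAAG read from the other strand is CTTCCGG, whose first letters can belong to a pyrimidine run. A match describes letters in a window, not a site in use.

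Ribosomal protein transcripts made up nearly the same share of the mRNA in both classes. Their TPM (the authors' transcript abundance, corrected for length and scaled to a common sum) summed to 49093 and 46461 in the SN libraries and to 50490 and 44677 in the NSN libraries. Both SN libraries lay between the NSN libraries. The mean was 47777 ± 1861 TPM in SN oocytes and 47583 ± 4110 TPM in NSN oocytes (SD, n = 2 each), a ratio of 1.004. As a share of all TPM the members took 4.91% and 4.65% in the SN libraries and 5.05% and 4.47% in the NSN libraries. Small subunit members summed to 18261 ± 296 TPM in SN oocytes and 18547 ± 1696 TPM in NSN oocytes (SD, n = 2 each). Large subunit members summed to 29516 ± 1565 TPM in SN oocytes and 29036 ± 2414 TPM in NSN oocytes (SD, n = 2 each). Neither difference between classes was larger than the SD of the NSN libraries. With 2 libraries a class an exact permutation test cannot reach 0.05, and none was run on the sums. The side of 1 on which the ratio fell depended on single libraries, at 0.976 without SN replicate 1 and 0.946 without NSN replicate 2.

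The mRNA levels of single members were far from equal. Over the 4 libraries the median member averaged 419.6 TPM, with quartiles at 213.9 and 827.2 TPM. Of the 83 members, 71 averaged at least 100 TPM (85.5%), against 8.44% of all genes, 13 averaged at least 1000 TPM and 9 averaged under 50 TPM. The median was 535.1 TPM in the small subunit and 394.2 TPM in the large subunit.

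**Figure D1:**
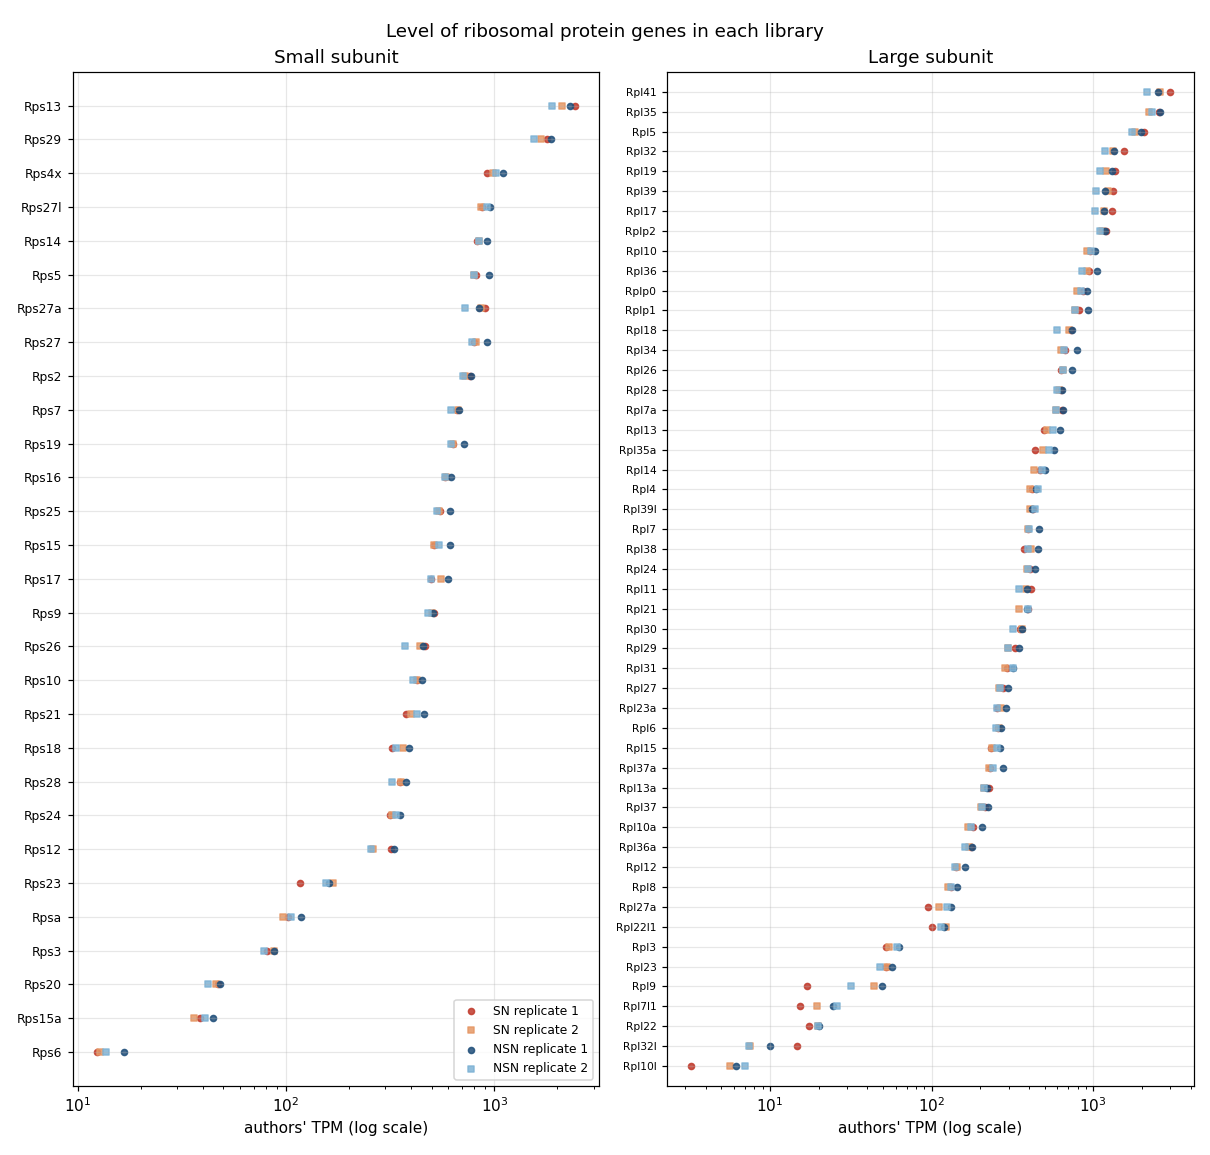
Level of each ribosomal protein gene in the 4 libraries, in the authors' TPM on a log axis, with small subunit genes on the left and large subunit genes on the right, ordered by mean level (a few members, among them Rpl3l at under 1 TPM, are not drawn). Circles and squares of 1 gene lie close together beside the spread between genes, from Rpl41, Rpl35 and Rps13 at the top to Rps6 and Rpl10l at the bottom.

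At the top of the small subunit stood Rps13, which had 2451 and 2117 TPM in the SN libraries and 2308 and 1901 TPM in the NSN libraries. Rps29, a small zinc-binding protein, had 1782 and 1684 TPM in the SN libraries and 1869 and 1556 TPM in the NSN libraries. In both of these genes the values of the classes overlapped. X-linked Rps4x had 923 and 989 TPM in the SN libraries and 1105 and 1023 TPM in the NSN libraries, and here both SN libraries lay below both NSN libraries. In the large subunit Rpl41, which encodes one of the shortest proteins known, had 2965 and 2572 TPM in the SN libraries and 2521 and 2156 TPM in the NSN libraries. Rpl35, found beside the exit of the peptide tunnel, had 2552 and 2223 TPM in the SN libraries and 2577 and 2313 TPM in the NSN libraries. Rpl5 had 2049 and 1824 TPM in the SN libraries and 1985 and 1744 TPM in the NSN libraries. Rpl32 had 1560 and 1322 TPM in the SN libraries and 1342 and 1178 TPM in the NSN libraries. Rpl41 was above Rpl35 in both SN libraries and below it in both NSN libraries. Rpl5 was above Rps29 in each of the 4 libraries.

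The low end of the order holds genes whose reads or lengths need a second look. Rps6, the classical substrate of the S6 kinases, had 12.3 and 12.8 TPM in the SN libraries and 16.7 and 13.7 TPM in the NSN libraries, and a copy of identical coding sequence was assigned many more reads, as described below. Rps15a had 38.5 and 36.2 TPM in the SN libraries and 44.6 and 40.9 TPM in the NSN libraries. Rps20 had 47.0 and 46.2 TPM in the SN libraries and 47.9 and 42.2 TPM in the NSN libraries. Their read numbers were not low: in CPM (counts scaled to library total and TMM factor, not corrected for length), Rps15a had 160 and 131 CPM in the SN libraries and 160 and 134 CPM in the NSN libraries. The deposited values imply a length for each gene, as counts per TPM, and this was 9.48 times the median of the members for Rps15a and 6.23 times for Rps20, the highest of the set. In the large subunit Rpl10l, Rpl32l and Rpl22 were lowest among the tested members, and Rpl3l had at most 0.08 TPM in any library.

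SN and NSN oocytes were compared gene by gene with edgeR's quasi-likelihood test, over 13426 genes that passed the filter on low counts. All 31 small subunit members and 51 of the 52 large subunit members were tested, Rpl3l being left out for its low counts. None of the 82 was called at an adjusted p of 0.05, and neither was any other gene (0% of all tested genes). DESeq2 called 47 genes and no member. Without SN replicate 2, edgeR called 289 genes, 4 of them members, such as Rpl32, Rpl41 and Rpl9, and without SN replicate 1 it called 27 genes and no member. At an unadjusted p of 0.05, 6 of the 82 members passed, against 7.48% of all tested genes. This count rests on single libraries: it was 31 without NSN replicate 1, 23 without SN replicate 2, 3 without NSN replicate 2 and 0 without SN replicate 1, against 8.61%, 10.95%, 4.66% and 5.65% of all genes in those fits.

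Of these 6, 5 were on the side of higher values in SN oocytes, among them Rpl17, Rpl39, Rpl41 and Rps27a. Rpl39, a very short protein that lines the peptide exit tunnel, had 250 and 202 CPM in the SN libraries and 198 and 159 CPM in the NSN libraries. Both SN libraries were above both NSN libraries, though SN replicate 2 and NSN replicate 1 nearly touched, and the log2 fold change was 0.34 (SE 0.13; adjusted p = 0.662 by edgeR). Rpl17, at the rim of the same tunnel, had 760 and 602 CPM in the SN libraries and 591 and 485 CPM in the NSN libraries, with a log2 fold change of 0.34 (SE 0.15). Rps27a is made as a fusion of ubiquitin and a small subunit protein. It had 430 and 359 CPM in the SN libraries and 354 and 280 CPM in the NSN libraries, with a log2 fold change of 0.31 (SE 0.14). Rpl41 had 600 and 446 CPM in the SN libraries and 452 and 349 CPM in the NSN libraries, so that NSN replicate 1 lay above SN replicate 2, and its log2 fold change was 0.38 (SE 0.16). These last 3 genes also had an adjusted p of 0.662 by edgeR. By TPM, both SN libraries were above both NSN libraries for each of these 4 genes.

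Rpl7l1 was the only one of the 6 with lower values in SN oocytes. It encodes a nucleolar relative of Rpl7 that takes part in assembly of the large subunit. Its levels were 31.0 and 34.2 CPM in the SN libraries and 42.9 and 41.5 CPM in the NSN libraries. The classes did not overlap and lay further apart than the libraries within either class. The log2 fold change was −0.37 (SE 0.11), with the smallest unadjusted p of any member, 0.00577, and an adjusted p of 0.662 by edgeR. The authors' deposited table gave its model a log2 ratio of −0.38 and an unadjusted p of 0.000578. There, 7 of the 145 member models had a p under 0.05, 5 higher and 2 lower in SN oocytes, against 8.36% of all models with a p. Besides Rpl7l1 these included models of Rps27a, Rpl17, Rps24, Rplp2 and Rpl39.

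In the small subunit, after Rps27a, the smallest p belonged to Rps20, Rps3 and Rps26. Rps20 had a log2 fold change of 0.23 (SE 0.12), Rps3 of 0.20 (SE 0.11) and Rps26, which lines the mRNA exit channel, of 0.27 (SE 0.15). Rps3, at the mRNA entry channel, had 114 and 107 CPM in the SN libraries and 106.0 and 86.7 CPM in the NSN libraries, so its classes were apart by about 1 CPM. None of these 3 passed even without adjustment.

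Genes of the ribosomal stalk and of known disease or signalling roles had log2 fold changes between 0.01 and 0.26, apart from Rps6 at −0.11 (SE 0.17). The stalk base Rplp0 had 839 and 670 CPM in the SN libraries and 770 and 640 CPM in the NSN libraries, with overlapping classes and a log2 fold change of 0.10 (SE 0.15). Its partners Rplp1 and Rplp2 had log2 fold changes of 0.04 (SE 0.14) and 0.17 (SE 0.12). Rpl5 and Rpl11, which form the particle that can bind Mdm2, had log2 fold changes of 0.22 (SE 0.17) and 0.26 (SE 0.13). Rps19, mutated in Diamond-Blackfan anaemia, had 187 and 162 CPM in the SN libraries and 186 and 145 CPM in the NSN libraries, with a log2 fold change of 0.08 (SE 0.12). Rpsa, also known as a laminin receptor, had a log2 fold change of 0.01 (SE 0.12). Values of the classes overlapped for Rplp1, Rplp2, Rpl5, Rpl11 and Rpsa as well.

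Taking all tested members, 68 of 82 had a fitted log2 fold change above 0, against 48% of all tested genes. The median was 0.10 over 31 small subunit members (26 above 0) and 0.09 over 51 large subunit members (42 above 0), and −0.01 over all tested genes. These medians are smaller than the median differences between libraries of a class, given below. The sign also hangs on the scaling. With library size alone the medians were −0.05 in both subunits while all genes moved to −0.15. On log2(TPM + 1) they were −0.05 and −0.06 while all genes moved to −0.13. Relative to all genes the members stayed higher on each of these scales. That order did not hold in every fit with 1 library left out. Without NSN replicate 2 the medians were −0.05 and −0.03, below the 0.004 of all genes. Without SN replicate 1 the large subunit was at −0.04, below the 0.0004 of all genes, and the small subunit at 0.01. Both SN libraries were above both NSN libraries by CPM for 5 members, against 18.3% of all tested genes, and the reverse held for 3 members, against 20.7% of all tested genes. These counts are below both backgrounds, and the remaining 74 members overlapped. The 5 included Rpl17, Rpl39, Rps27a and Rps3, and the 3 were Rpl7l1, Rpl10l and Rpl27a. By TPM, both SN libraries were above for 5 members, against 4.98% of all tested genes, both NSN libraries were above for 24 members, against 37% of all tested genes, and 53 overlapped.

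**Figure D2:**
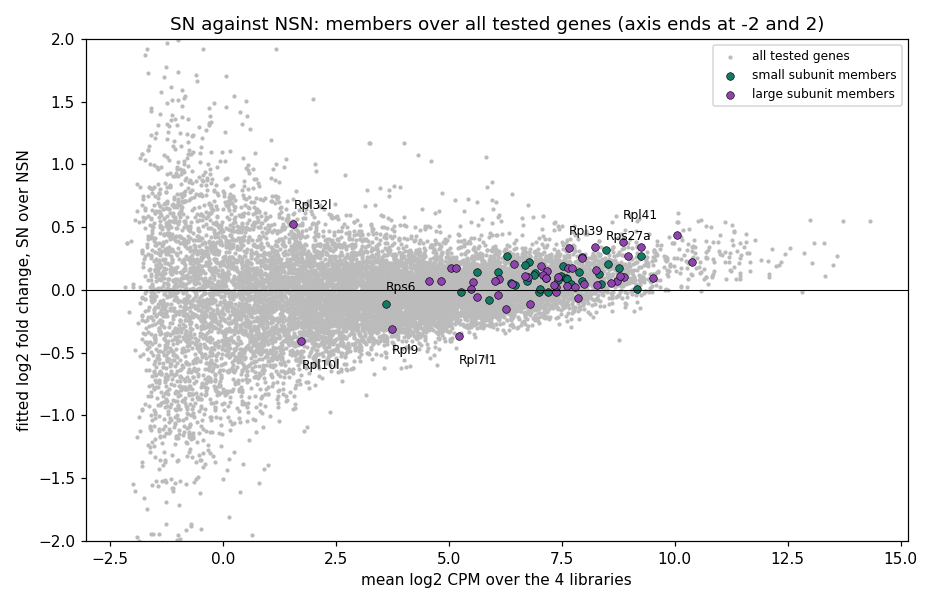
Fitted log2 fold change of SN over NSN against the mean log2 CPM for 13426 tested genes in grey and the ribosomal protein genes in colour (38 genes beyond −2 or 2 are not drawn). Members form a tight band just above 0 at the abundant end, within the cloud of other genes, with Rpl41 above most of them and Rpl7l1 below 0.

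Abundant genes in general leaned the same way. Of 67 members with a mean of at least 6 log2 CPM, 89.6% had a log2 fold change above 0 with a median of 0.10. Of 2713 other tested genes at that level, 65.8% had one above 0 with a median of 0.06. This level was chosen after the values were seen.

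The members moved together between libraries of the same class. NSN replicate 1 was above NSN replicate 2 in 81 of 82 members, by a median of 0.30 on the log2 CPM scale. SN replicate 1 was above SN replicate 2 in 76 of 82 members, by a median of 0.24. Over all tested genes these medians were −0.01 and −0.005. Among genes of at least 6 log2 CPM, NSN replicate 1 was the higher NSN library in 100% of members and in 51.5% of other genes. Between classes the median depended on which libraries were set against each other: it was 0.37 for SN replicate 1 over NSN replicate 2, 0.13 for SN replicate 2 over NSN replicate 2, 0.09 for SN replicate 1 over NSN replicate 1 and −0.16 for SN replicate 2 over NSN replicate 1. Set against the mean of the 4 libraries, the median member stood at 0.17 in SN replicate 1, at −0.07 in SN replicate 2, at 0.09 in NSN replicate 1 and at −0.20 in NSN replicate 2. Small and large subunit genes shared this order of libraries. Which step of collection or library making differed between replicates was not tested.

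**Figure D3:**
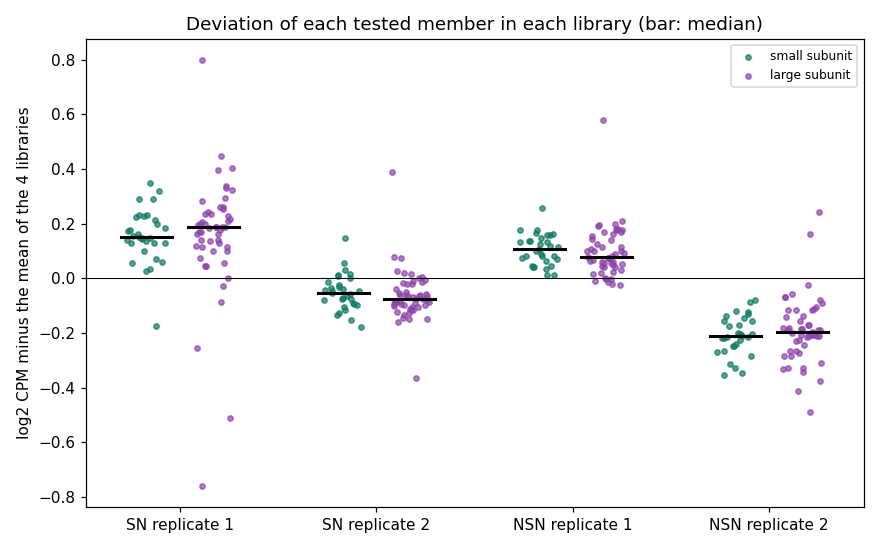
Deviation of each tested ribosomal protein gene from its own mean over the 4 libraries, in log2 CPM, with small subunit genes in green, large subunit genes in purple and the median of each as a bar. The medians are above 0 in replicate 1 of each class and below 0 in replicate 2 of each class.

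Rpl9 was among the members that departed from that pattern. It had 7.38 and 16.4 CPM in the SN libraries and 18.8 and 10.9 CPM in the NSN libraries, so that SN replicate 1 was the lowest library here and not the highest. The same library was lowest for some other members, such as Rpl7l1 and Rpl10l. The log2 fold change of Rpl9 was −0.31 with an SE of 0.56, the widest among members. Rpl32l, at 4.76 and 2.10 CPM in the SN libraries and 2.83 and 1.91 CPM in the NSN libraries, was also set by SN replicate 1, with a log2 fold change of 0.53 (SE 0.38). Rpl9 was named after its values were seen.

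Several members have a second gene for a related protein, in some cases one known from the male germ line or from muscle. How alike the proteins of each pair are was not computed. Shares below are the second copy's part of the TPM of both genes, so they depend on the length implied for each gene. Rpl39l, enriched in mouse testis, took 24.3% and 24.6% of the pair in the SN libraries and 26.1% and 29.5% in the NSN libraries. Both SN shares were below both NSN shares, a difference that was not tested as a share. Rpl39l had a log2 fold change of 0.10 (SE 0.10) (adjusted p = 0.839 by edgeR), beside the 0.34 of Rpl39 given above. Rps27l, a p53 target, was as abundant as Rps27 by TPM. It held 52.3% and 51.5% of the pair in the SN libraries and 50.8% and 54.1% in the NSN libraries. The length implied was 0.272 times the median of the members for Rps27 and 0.596 times for Rps27l. By CPM Rps27l was higher, with 229 and 194 CPM in the SN libraries and 220 and 191 CPM in the NSN libraries. Rps27 had 95.2 and 82.6 CPM in the SN libraries and 98.5 and 74.4 CPM in the NSN libraries. The log2 fold changes were 0.04 (SE 0.11) for Rps27l and 0.04 (SE 0.13) for Rps27. Rpl22l1 took 85.1% and 86.2% of its pair in the SN libraries and 85.5% and 85.2% in the NSN libraries, so by TPM the second copy held most of the pair in both classes. This share depends on length: the length implied for Rpl22 was 3.84 times the median of the members. By CPM the order was the other way, Rpl22l1 having 23.5 and 24.8 CPM in the SN libraries and 24.6 and 21.3 CPM in the NSN libraries, and Rpl22 having 29.5 and 28.7 CPM in the SN libraries and 29.2 and 26.2 CPM in the NSN libraries. By TPM Rpl22l1 had 101 and 123 TPM in the SN libraries and 119 and 114 TPM in the NSN libraries. Rpl22 had 17.6 and 19.7 TPM in the SN libraries and 20.2 and 19.8 TPM in the NSN libraries. Log2 fold changes were 0.07 (SE 0.13) for Rpl22l1 and 0.07 (SE 0.12) for Rpl22.

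Rpl7l1 took 3.77% and 4.74% of the TPM shared with Rpl7 in the SN libraries and 5.06% and 6.10% in the NSN libraries. Rpl7 itself had overlapping levels, with a log2 fold change of 0.02 (SE 0.12). Rpl10l, which replaces X-linked Rpl10 in meiotic male germ cells of the mouse, took 0.341% and 0.618% of its pair in the SN libraries and 0.599% and 0.715% in the NSN libraries. Its level was 2.23 and 3.38 CPM in the SN libraries and 3.67 and 3.80 CPM in the NSN libraries, with a log2 fold change of −0.41 (SE 0.28; adjusted p = 0.749 by edgeR). Rpl10 averaged far higher and had a log2 fold change of 0.07 (SE 0.13). Rpl3l, the form of heart and skeletal muscle, was listed at 0 TPM in SN replicate 1 and at 0.02 TPM in SN replicate 2, and at 0.08 and 0.02 TPM in the NSN libraries. Its partner Rpl3 had 52.1 and 54.2 TPM in the SN libraries and 63.0 and 61.4 TPM in the NSN libraries, and a log2 fold change of −0.06 (SE 0.11). Rpl32l took under 1% of the TPM shared with Rpl32 in every library. A second copy of Rps4x, Rps4l, was not among the members found by symbol, so it was not analysed here.

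Processed copies of ribosomal protein genes, which lack introns and can match an mRNA almost letter for letter, share reads with members in ways that decide their listed level. Of the 82 members that could be searched in GENCODE M21 transcripts, 76 had at least 1 copy with 95% identity or more over at least 80% of the coding part. The median was 5 copies and the most was 57, for Rpl21. Of these copies, 12 from 10 members have rows of their own among the deposited values.

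The largest shift was in Rps6. Rps6-ps4 (chromosome 2, 75190995 to 75191854 in GRCm38.p6) is a transcribed pseudogene in RefSeq and was identical to Rps6 over the matched coding bases. It was assigned 7720 and 8586 counts in the SN libraries and 8391 and 7528 counts in the NSN libraries. Rps6 kept 408 and 411 counts in the SN libraries and 479 and 378 counts in the NSN libraries. The copy thus held 94.98% and 95.43% of their reads in the SN libraries and 94.6% and 95.2% in the NSN libraries. Together both rows came to 467 and 533 TPM in the SN libraries and 583 and 544 TPM in the NSN libraries, within the range of other members. With the copy added, the log2 fold change was −0.02 (SE 0.11), against −0.11 (SE 0.17) for Rps6 alone.

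Rpl37rt (chromosome 5, 115102922 to 115110268) took 76.1% and 77.4% of the reads shared with Rpl37 in the SN libraries and 75.5% and 76.5% in the NSN libraries, at 99.7% identity. Together they had 1162 and 1158 TPM in the SN libraries and 1185 and 1135 TPM in the NSN libraries, and a joint log2 fold change of 0.16 (SE 0.12). Rpl37rt is protein-coding in RefSeq and a transcribed processed pseudogene in GENCODE. Rpl34-ps1 took 11.8% and 11.2% of the reads shared with Rpl34 in the SN libraries and 9.5% and 9.6% in the NSN libraries. Rps27rt took 2.6% and 2.2% of those shared with Rps27 in the SN libraries and 2.6% and 0.7% in the NSN libraries. BC004004, a longer gene that matched Rpl21, held 15.2% and 18.5% in the SN libraries and 17.6% and 18.1% in the NSN libraries. Which locus was transcribed cannot be read from counts that the aligner and RSEM divided, so levels of Rps6 and Rpl37 alone are uncertain. Summing copies into members left 0 members called. BC004004 and Wdr89, which matched Rplp2, were not summed in. This alternative was chosen after the data were seen.

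**Figure D4:**
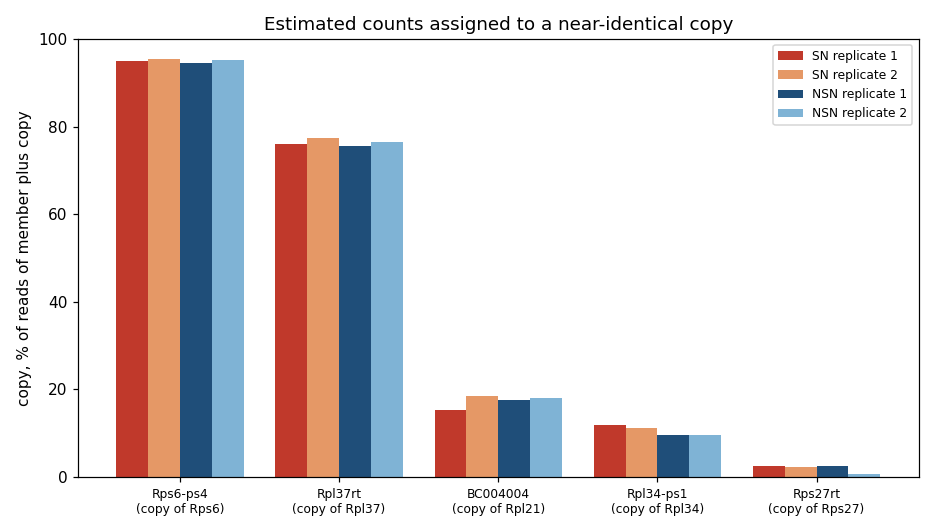
Share of the estimated counts of a member and its near-identical copy that was assigned to the copy, in % and for each of the 4 libraries. The bars of a gene are nearly level across libraries, from over 94% for Rps6-ps4 to under 3% for Rps27rt.

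Whether SN and NSN oocytes divided a gene's reads differently among its transcript models was tested by Simes p-values from diffSpliceDGE in edgeR. Of the members, 50 have a single model and 33 have more, up to 6. Among the 33, the leading model held a median of 92.7% of the counts, and in 17 genes it held over 90%. Of 7000 genes tested, 0.429% were called at an adjusted p of 0.05, or 30 genes, against 0 to 14 genes with 1 library left out. None of the 31 members tested was called, and none had an unadjusted p under 0.05. The smallest adjusted p among them was 0.999995.

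Rps27a had the smallest unadjusted Simes p, 0.395. Its second model, NM_024277.2, held 44.4% and 42.0% of the counts in the SN libraries and 37.8% and 32.2% in the NSN libraries. Both SN shares were above both NSN shares, and this model's log2 ratio in the authors' deposited table was 0.60 with an unadjusted p of 0.00619. Rpl11 had its reads divided between NM_025919.3, with 50.5% and 55.2% in the SN libraries and 56.2% and 57.1% in the NSN libraries, and a predicted model. For Rpl22l1, NM_026517.3 held 37.7% and 37.7% of the counts in the SN libraries and 29.8% and 28.9% in the NSN libraries. Both SN shares were above both NSN shares, with an unadjusted Simes p of 0.694. Rps24 was spread over 6 models, of which a predicted one led with 49.6% and 49.1% in the SN libraries and 53.8% and 52.6% in the NSN libraries. NM_207635.2 of Rps24 held 35.7% and 36.5% in the SN libraries and 32.2% and 34.1% in the NSN libraries. Rpl38 was spread over 5 models, the leading one holding 42.7% and 38.7% in the SN libraries and 37.5% and 38.4% in the NSN libraries. The last 2 genes were named after their values were seen.

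**Figure D5:**
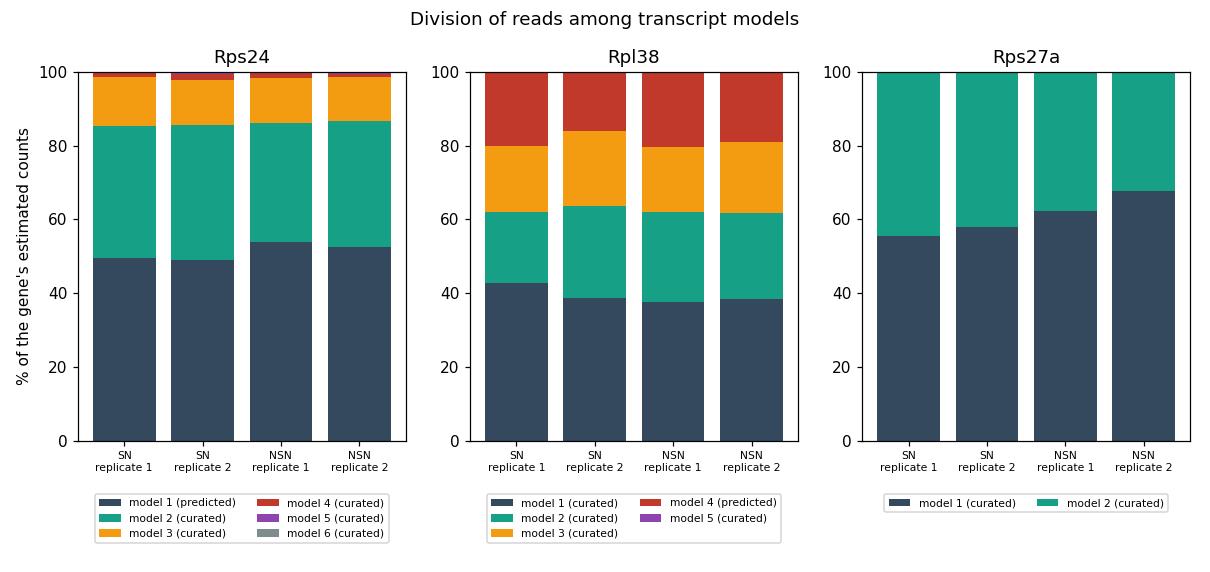
Percent of the estimated counts of Rps24, Rpl38 and Rps27a assigned to each of their transcript models, stacked, in the 4 libraries. The division differs little between libraries for Rps24 and Rpl38, while the second model of Rps27a runs between 32.2% in NSN replicate 2 and 44.4% in SN replicate 1.

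Members with a pyrimidine run of at least 8 bases anywhere in the searched stretch had a median log2 fold change of 0.08 (48 tested members), and those with a window but no such run had 0.10 (14 tested members). Other mRNAs known to carry TOP tracts were read beside them, 16 genes in all, with 11 above 0 and a median log2 fold change of 0.06. Of these Hnrnpa1, a splicing factor, had 144 and 152 CPM in the SN libraries and 116 and 126 CPM in the NSN libraries. Its log2 fold change was 0.29 (SE 0.09; adjusted p = 0.662 by edgeR). Eif4a2, a translation initiation helicase, had a log2 fold change of 0.22 (SE 0.09). These 2 had an unadjusted p under 0.05, and no gene of the list was called.

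The 5 ribosomal protein genes that the naming rule misses had a median log2 fold change of 0.10, with 3 above 0. Rpl36al and Fau had the smallest p among them and log2 fold changes of 0.27 (SE 0.15) and 0.23 (SE 0.18). Of 15 ribosome-binding and ribosome-rescue factors, 9 were above 0 with a median of 0.02. The nascent-chain factor Naca had a log2 fold change of 0.35 (SE 0.17) and the ubiquitin ligase Ltn1 one of −0.26 (SE 0.13). Of 10 ribosomal protein chaperones and TOP regulators, 5 were above 0 with a median of −0.001. Among these Pdcd2, a chaperone of Rps2, had −0.22 (SE 0.12) and Heatr3, which helps import Rpl5, had −0.51 (SE 0.28). Larp1 itself had 2.35 and 2.71 CPM in the SN libraries and 2.71 and 2.34 CPM in the NSN libraries. No gene of these lists was called or passed at an unadjusted p of 0.05.

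The mitochondrial ribosome, with 78 tested proteins, served as a second ribosome in the same cells. Its genes summed to 15670 ± 780 TPM in SN oocytes and 16698 ± 214 TPM in NSN oocytes (SD, n = 2 each). Of the 78, 52 had a log2 fold change above 0 with a median of 0.04, and none was called. Mrps27 had 102 and 95.5 CPM in the SN libraries and 77.5 and 74.8 CPM in the NSN libraries, with a log2 fold change of 0.37 (SE 0.09; adjusted p = 0.609 by edgeR). Mrps30 had a log2 fold change of −0.39 (SE 0.12). NSN replicate 1 was above NSN replicate 2 in 67 of the 78 by a median of 0.15, and SN replicate 1 above SN replicate 2 in 57 by a median of 0.09, in the direction seen in the cytosolic set.

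Libraries held 32307398 to 37023401 estimated counts, and a floor of 3 counts is between 0.081 and 0.0929 CPM. In this paragraph CPM is scaled to the library total alone, without the TMM factor, unlike the CPM of single genes above. The SN libraries were the deeper ones. Oocyte markers, such as the zona pellucida genes, were all 10 present at a summed 27561 and 25727 CPM in the SN libraries and 25749 and 24148 CPM in the NSN libraries. All 13 granulosa and cumulus markers had counts, with sums of 330 and 389 CPM in the SN libraries and 333 and 406 CPM in the NSN libraries, of which Serpine2 and Cyp19a1 made up most. Foxl2 and Wt1 had at most 2 counts in any library, and Amh at most 11. Inha had 123 and 242 counts in the SN libraries and 378 and 141 counts in the NSN libraries. Fst had 10 and 16 counts in the SN libraries and 47 and 15 counts in the NSN libraries, and Hsd17b1 had 21 and 24 counts in the SN libraries and 57 and 20 counts in the NSN libraries, so these 3 were highest in NSN replicate 1. Fshr, Kitl and Nr5a2 had between 101 and 930 counts per library. Theca and stroma markers summed to 5.73 and 5.93 CPM in the SN libraries and 7.12 and 8.82 CPM in the NSN libraries. Blood, immune and endothelial markers summed to 16.4 and 20.7 CPM in the SN libraries and 16.3 and 18.1 CPM in the NSN libraries, mostly from Pecam1. Within that list Lyz2 had 27 and 35 counts in the SN libraries and 0 and 1 counts in the NSN libraries, and Hba-a1 18.2 and 26.0 counts in the SN libraries and 0 counts in both NSN libraries. Ptprc had at most 1 count. The part of other cells in the members' values was not tested.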

How the data were processed

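Poly(A)-selected RNA of 2 SN and 2 NSN libraries was analysed from 1 table of RefSeq transcript models. Per the submitters' processing notes, the authors used HISAT2, Bowtie2, RSEM and the mm10 build, with versions and roles not given in the sources used here. The authors deposited estimated counts per model (59.8% not whole), TPM, and for SN over NSN a log2 ratio and a p-value, unadjusted, whose tool is not given in the sources used here. Another 8 columns of per-sample values were not used. RSEM divides a read among near-identical models by likelihood, which adds error to close copies that the tests cannot see.

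Estimated counts of all models of a gene ID were added up and rounded to whole numbers. Genes were kept by filterByExpr, scaled by TMM and tested in edgeR 4.0.16 (R 4.3.3) by the quasi-likelihood test with robust dispersion, at a Benjamini-Hochberg adjusted p of 0.05 over all genes. Log2 fold changes are SN over NSN, and log2 CPM used a prior count of 2. In counts simulated for this comparison (13201 to 13216 genes, 200 changed), edgeR found 46% of the genes changed 1.5-fold (12 false calls), 96.5% of those changed 2-fold (23) and 99.5% of those changed 4-fold (24). The isoform test, checked on 6321 genes in the same way, found 10% of 60 in which 1 model was raised 2-fold and another lowered 2-fold, and made 11 false calls. In both checks the changed genes were drawn from those above a minimum level, and genes were simulated independently. The checks therefore do not cover low members such as Rpl10l and Rpl32l, or a shift between libraries that members share. Copies were searched with BLAST 2.17.0. Locations and sequences are from RefSeq GRCm38.p6. Floors cover counting error only. Each SE comes from the edgeR fit, whose dispersion is estimated from differences among the libraries.

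The members and lists were chosen with earlier results of these data known. Named members are the 4 highest and 3 lowest by TPM among those tested and the 4 with the smallest p in each subunit, the second copies with partners, Rps6, Rps19, Rpsa, Rpl5, Rpl11, Rplp0, Rplp1 and Rplp2, the 3 with the smallest isoform p, and in each other list the 2 with the smallest p. A few of these genes are not reported here. Chosen after values were seen were Rpl9, Rpl38, Rps24, the copies and the level of 6 log2 CPM. Replicates differed beyond sampling noise, with a mean chi-square per gene of 36.5 for the SN libraries and 21.5 for the NSN libraries.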

Additional observations from a re-analysis of the deposited data

How the results depend on the processing

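No member was called in the comparison as reported or with DESeq2 1.42.0, library size alone, limma-voom (limma 3.58.1), no filter on low counts, log2(TPM + 1), log2(TPM + 0.1), the replicate block or copies summed in. Leaving out 1 library in turn gave 0 to 4 members: without SN replicate 2 there were 4, such as Rpl32, Rpl41 and Rpl9, in a fit where the lone SN library is assumed to vary like the others. Genes called numbered 0 as reported, 1004 having an unadjusted p under 0.05, 0 with limma-voom and with copies summed in, 47 with DESeq2, 15 with library size alone, 15 with no filter, 10 with log2(TPM + 1), 10 with log2(TPM + 0.1), and 2 to 289 with 1 library left out (289 without SN replicate 2, 27 without SN replicate 1). The replicate numbers do not pair the samples by the labels. The deviations of same-numbered libraries correlated at 0.029 over genes, and with the replicate block 44 genes and no member were called, 23 members and 11.1% of all genes had an unadjusted p under 0.05, and isoform calls came to 2.

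The small and large subunit medians were −0.051 and −0.054 with library size alone, −0.054 and −0.063 with log2(TPM + 1) and with log2(TPM + 0.1), and ran between −0.053 and 0.265 and between −0.044 and 0.249 with 1 library left out. The ratio of summed TPM was 0.990 without the most abundant member of each subunit and 0.946 to 1.069 with 1 library left out. Isoform calls over all genes fell to 14 with a minimum of 10 counts in place of the filter, 0 with curated models alone and 0 to 14 with 1 library left out; 30 were called as reported, and no member in any of these.

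Of 27 members with a fold change followed through every setting, 13 kept their sign, among them Rpl10l, Rpl11, Rpl17, Rpl39, Rpl41, Rpl5, Rpl7l1, Rplp2, Rps20, Rps26, Rps27a and Rps3. Signs turned in 12 members with library size alone, log2(TPM + 1) and log2(TPM + 0.1), in that order: Rpl10 at −0.081, −0.096 and −0.096, Rpl22 at −0.069, −0.097 and −0.101, Rpl22l1 at −0.065 in each, Rpl39l at −0.050, −0.047 and −0.047, Rpl7 at −0.121, −0.135 and −0.136, Rplp0 at −0.053, −0.078 and −0.078, Rplp1 at −0.107, −0.091 and −0.091, Rps19 at −0.069, −0.063 and −0.063, Rps27 at −0.105, −0.073 and −0.073, Rps27l at −0.103, −0.107 and −0.107, Rps4x at −0.136, −0.154 and −0.154, and Rpsa at −0.141, −0.165 and −0.166. The cause of these turns was not tested. With 1 library left out, the log2 fold changes that turned sign ran over these ranges: Rpl10 −0.063 to 0.196, Rpl22 −0.004 to 0.155, Rpl22l1 −0.025 to 0.180, Rpl3 −0.139 to 0.031, Rpl39l −0.013 to 0.213, Rpl7 −0.134 to 0.202, Rplp0 −0.069 to 0.254, Rplp1 −0.147 to 0.257, Rps19 −0.088 to 0.263, Rps27 −0.148 to 0.256, Rps27l −0.071 to 0.160, Rps4x −0.110 to 0.136, Rps6 −0.306 to 0.110, Rpsa −0.136 to 0.167.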
